A study of Oryza sativa with 8 samples.

Results

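The auxin genes of rice roots described here are the genes whose Description in the gene table contains the word auxin and does not contain germin, a rule that uses no expression value. It found 150 of the 37869 genes in the table, and no gene was lost to the second condition. RNA was sequenced from roots of 2-week-old plants in 8 libraries. Of these, 4 came from ROX OsERF48 plants, which overexpress the drought-responsive transcription factor OsERF48 under the root-specific RCc3 promoter, and 4 from nontransgenic (NT) plants of the parent cultivar Ilmi. All plants were germinated on Murashige and Skoog medium, grown in soil pots in a greenhouse and sampled without a drought treatment. The ROX plants belonged to 2 transgenic lines, #2 and #6, and the column names do not say which line a library came from.

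By the style of the column names there are 2 library sets, named Root and Set for a word that each style uses, and each set holds 2 ROX and 2 NT libraries. No promoter or tissue is written in the Set names, and both were read from the sample labels. Set and line cannot be told apart from the names. On log2(FPKM + 1), Pearson correlations ran from 0.962 to 0.997 within a set but only from 0.828 to 0.888 between sets, so each comparison was made over both sets and within each. The estimated depth was 36800000 to 43000000 fragments in the Root and 47200000 to 50400000 in the Set libraries. OsERF48 (Os08g0408500) was 5.40-fold higher in Root ROX than in Root NT and 11.4-fold higher in Set ROX than in Set NT, and no ROX library overlapped an NT library. The root genes Lsi1 (Os02g0745100, a silicon transporter) and RCc3 (Os02g0662000) were present in every library. The 20 genes of a shoot list (chlorophyll a/b binding proteins and the Rubisco small subunit) summed to 32.1 and 34.1 FPKM in Root ROX against 52.5 and 49.9 in Root NT, and to 16.9 and 16.3 in Set ROX against 24.0 and 22.7 in Set NT, with 4 to 9 of the 20 at 0 in a library.

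Auxin is made from tryptophan by way of indole-3-pyruvate, which flavin monooxygenases of the YUCCA family convert to indole-3-acetic acid (IAA), and it moves from cell to cell through influx carriers of the AUX1 type and efflux carriers of the PIN type. In the nucleus it binds TIR1 F-box receptors, which mark Aux/IAA repressors for destruction and so release the auxin response factors (ARFs) that those repressors hold. Aux/IAA, GH3 and SAUR genes are themselves switched on early by auxin, and in roots the pathway is known for its control of elongation, gravitropism and lateral root formation.

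The Descriptions placed 33 of the 150 genes among SAUR genes, 23 among Aux/IAA, 23 among ARF, 16 among efflux carriers, 9 among GH3, 7 among auxin-independent growth promoters, 4 among influx carriers, 4 among receptors and auxin-binding proteins, 3 among dormancy or auxin-repressed genes, and 28 among other auxin Descriptions. A mean of at least 0.5 FPKM (fragments normalized for transcript length and for sequencing depth) over the 8 libraries was reached by 111 of the 150. The 39 others had means of 0.494 FPKM or less, 6 of them at 0 in every library, and 14 of the 39 were SAUR genes. These 39 were not tested. Every influx carrier, growth promoter and dormancy gene was tested, as were 22 of 23 ARF and 20 of 23 Aux/IAA genes, but only 19 of 33 SAUR and 5 of 9 GH3 genes.

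Over both library sets, no auxin gene passed the test for a 2-fold change between ROX and NT roots. A gene is called here at a 2-fold change with a Benjamini-Hochberg adjusted p under 0.05 over the 26136 genes tested by limma on log2(FPKM + 1), and by this rule 0.593% of all genes tested were higher and 0.214% were lower in ROX. At an unadjusted p under 0.05 from the same fit, 32 of the 111 auxin genes differed, or 28.8% against 27.9% of all genes, and 2 of them at least 2-fold, or 1.80% against 1.63%. With the fold limit set aside, 3 were higher and 4 lower at an adjusted p under 0.05, or 2.70% and 3.60% of the 111, against 2.74% and 4.34% of all genes. The shares of the auxin genes were thus near those of all genes. Of these 7 none passed without the library set in the fit (lowest adjusted p among auxin genes 0.596), with the libraries of a pair averaged (0.851) or with the replicate number as a block (0.0853). Of all 26136 genes only 45, 1 and 274 passed in these fits, so the absence of auxin genes there is not particular to them. The median log2 fold change was -0.032 over the auxin genes and -0.048 over all genes tested. For 105 of the 111 the 95% interval of the fold change lay within 2-fold in either direction, or 94.6%, against 93.2% of all genes.

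Within the Root libraries, 4 auxin genes rose and 1 fell, and they were SAUR and Aux/IAA genes. The 4 that rose make up 3.60% of the auxin genes, against 3.91% of all genes, and the 1 that fell 0.901%, against 0.911%. Without the fold limit 16 auxin genes were higher and 20 lower in Root ROX than in Root NT, or 14.4% and 18%, against 14.4% and 21.3% of all genes. With a pseudocount of 0.1 in place of 1 the called genes numbered 7 higher and 4 lower, or 6.31% and 3.60%, against 5.33% and 2.84% of all genes. RCc3 was at 152 and 161 FPKM in Root ROX against 321 and 307 in Root NT (log2 fold change -0.998, standard error 0.12, adjusted p = 0.00103). The summed FPKM of the shoot list was lower in Root ROX, and likewise in Set ROX (16.9 and 16.3 against 24.0 and 22.7 in Set NT). Of its 11 genes tested, 1 was called lower in Root ROX and 0 in Set ROX. The part that RCc3 or the shoot list has in the Root differences was not tested. In bulk roots, fewer cells of a type and less RNA per cell cannot be told apart.

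Within the Set libraries no auxin gene was called by limma, where 0.853% of all genes were higher and 0.49% lower. At an unadjusted p under 0.05, 40 auxin genes differed, or 36.0% against 24.4% of all genes, and 1 of them at least 2-fold, or 0.901% against 1.52%. At an adjusted p without the fold limit 6 were higher and 4 lower in Set ROX than in Set NT, or 5.41% and 3.60%, against 3.5% and 4.05% of all genes. RCc3 was at 1581 and 1540 FPKM in Set ROX against 1236 and 1608 in Set NT. The 95% intervals lay within 2-fold for 108 of the 111 auxin genes in the Set libraries and for 98 in the Root ones. The difference in OsERF48 between ROX and NT was larger in the Set libraries, in which no auxin gene was called, than in the Root libraries (difference of the log2 fold changes, Root minus Set, -1.06, standard error 0.18, adjusted p = 0.00755).

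**Figure D1:**
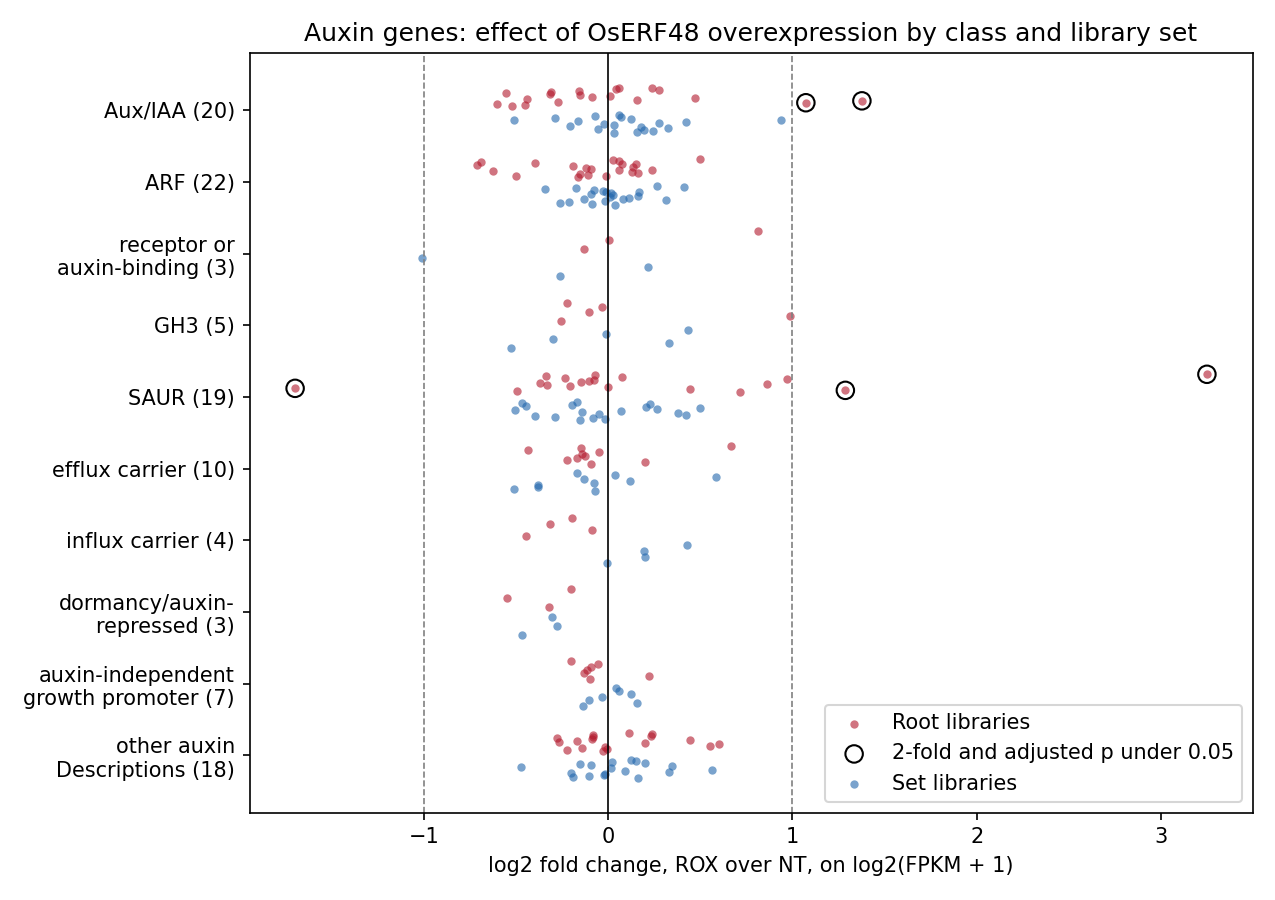
Log2 fold change of ROX over NT on the log2(FPKM + 1) scale (horizontal axis) for the 111 auxin genes tested, by class (vertical axis, number of genes in parentheses), in red for the Root and in blue for the Set libraries; circles mark genes at least 2-fold changed with an adjusted p under 0.05 and dashed lines mark 2-fold. The 5 circled points, 4 to the right and 1 to the left, are all Root values of SAUR and Aux/IAA genes.

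SAUR genes encode small proteins that promote cell expansion early in the auxin response. The SAUR gene with the largest change was Os01g0768333, a transcript of 369 bases without an intron on chromosome 1 (32390305 to 32390673 in the coordinates of the table). It was at 19.7 and 21.3 FPKM in Root ROX against 1.49 and 1.04 FPKM in Root NT, and at 0.423 and 1.01 FPKM in Set ROX against 0.671 and 1.17 FPKM in Set NT. Both Root ROX libraries stood far above the 6 others, and the Set ROX and Set NT libraries overlapped. The log2 fold change was 3.25 in the Root libraries (standard error 0.20, adjusted p = 4.54e-05) and -0.17 in the Set libraries (standard error 0.20, adjusted p = 0.654). By the depth estimate the Root ROX values rest on about 140 and 209 fragments and the Root NT values on 13 and 10, while the Set values rest on 4 to 9 fragments each.

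Os10g0510500, a SAUR gene without an intron on chromosome 10 (19631259 to 19632262) and among the most abundant of its class, was at 219 and 211 FPKM in Root ROX against 85.7 and 89.5 FPKM in Root NT. In the Set libraries it was at 88.0 and 122 FPKM in ROX against 102 and 118 FPKM in NT. The Root ROX libraries were the highest of the 8, and the Set groups overlapped. The log2 fold change was 1.29 in the Root libraries (standard error 0.15, adjusted p = 0.000746) and -0.08 in the Set libraries (adjusted p = 0.783).

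The gene that fell was Os09g0545300, whose Description names it a SAUR family negative regulator of auxin synthesis and transport. It was at 12.2 and 12.9 FPKM in Root ROX against 42.6 and 43.2 FPKM in Root NT, and at 8.01 and 4.66 FPKM in Set ROX against 10.8 and 6.49 FPKM in Set NT. The Root NT libraries stood above all others, and in the Set libraries the ROX and NT values overlapped, although ROX was below NT in each same-numbered pair of columns. The log2 fold change was -1.70 in the Root libraries (standard error 0.25, adjusted p = 0.00250) and -0.40 in the Set libraries (standard error 0.25, adjusted p = 0.393). Over both sets it was -1.05, with an adjusted p of 0.0752. Without the second Set NT or the first Set ROX library this gene was called over both sets as well, at -1.31 in either case.

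Os09g0545300 opens a run of 12 auxin genes within 44.2 kb of chromosome 9 (21565770 to 21609952), 5 of them in the SAUR class and 7 with other auxin Descriptions. Of the 12, 5 were expressed highly enough to be tested, and the others of the run had mean levels of 3.56 FPKM or less. The next SAUR gene in the run, Os09g0545500, was at 4.80 and 5.05 FPKM in Root ROX against 3.16 and 3.55 FPKM in Root NT (log2 fold change 0.44, adjusted p = 0.0322), a difference of less than 2-fold. It lies wholly within the annotated span of Os09g0545400, another auxin gene of the run. Whether reads of these 2 genes were kept apart where they overlap is not known. SAUR genes in a run can be close copies, and how reads shared between copies were assigned is not given in the sources used here.

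Of the 19 SAUR genes tested, 6 were higher and 4 lower in Root ROX than in Root NT at an adjusted p under 0.05 without the fold limit, a rule met by 14.4% and 21.3% of all genes. Os06g0702000 was at 17.4 and 18.8 FPKM in Root ROX against 9.39 and 9.58 FPKM in Root NT, and at 18.2 and 16.5 FPKM in Set ROX against 18.6 and 19.8 FPKM in Set NT. Its Root NT libraries were the low ones and the 6 others lay together. Os04g0537100, described as similar to auxin-induced protein X15, was at 19.1 and 20.7 FPKM in Root ROX against 9.92 and 9.47 FPKM in Root NT, a log2 fold change of 0.97 that fell just short of 2-fold. The abundant SAUR gene Os02g0512000 was lower in Root ROX, at 137 and 143 FPKM against 175 and 179 FPKM in Root NT, while in the Set libraries it was at 305 and 307 FPKM in ROX against 250 and 273 FPKM in NT. Os02g0769100, the other abundant SAUR gene, had log2 fold changes of -0.24 (Root) and -0.45 (Set), with adjusted p of 0.270 and 0.131.

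**Figure D2:**
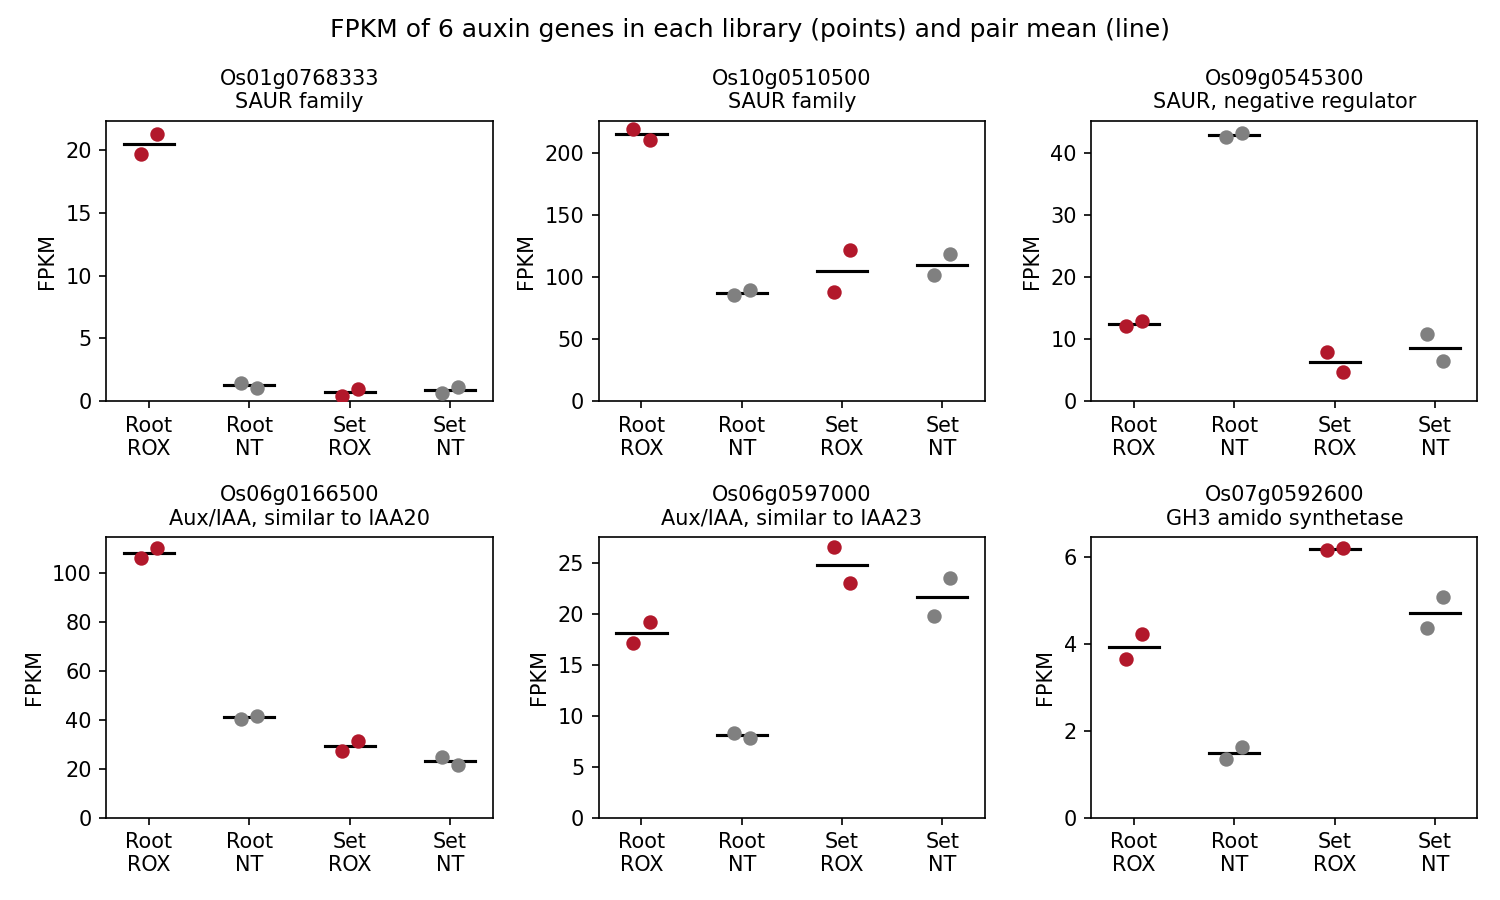
FPKM (vertical axis, from 0) of the 5 auxin genes called in the Root libraries and of the GH3 gene Os07g0592600 in each of the 8 libraries; points are libraries, red for ROX and grey for NT, and lines are the means of the 2 libraries. The Root ROX pair stands apart from the Root NT pair in every panel, whereas the Set ROX and Set NT points of Os01g0768333, Os10g0510500, Os09g0545300 and Os06g0597000 overlap.

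Aux/IAA genes encode the short-lived repressors of the ARFs. Os06g0166500, similar to IAA20 and located on chromosome 6 (3342464 to 3346318), was at 106 and 110 FPKM in Root ROX against 40.3 and 41.5 FPKM in Root NT, and at 27.3 and 31.4 FPKM in Set ROX against 24.9 and 21.6 FPKM in Set NT. ROX libraries were above NT libraries in both sets, but the Set ROX libraries lay below the Root NT libraries. The log2 fold change was 1.38 in the Root libraries (standard error 0.09, adjusted p = 6.09e-05) and 0.32 in the Set libraries (standard error 0.09, adjusted p = 0.0750). Over both sets it was 0.85, with an adjusted p of 0.0504.

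Os06g0597000, similar to IAA23 and located on chromosome 6 (23501973 to 23503491), was at 17.2 and 19.2 FPKM in Root ROX against 8.34 and 7.86 FPKM in Root NT, and at 26.6 and 23.0 FPKM in Set ROX against 19.8 and 23.5 FPKM in Set NT. The Root NT libraries were the lowest, and the Set ROX and Set NT values overlapped. The log2 fold change was 1.07 in the Root libraries (standard error 0.11, adjusted p = 0.000446) and 0.19 in the Set libraries (adjusted p = 0.327). Without the second Root ROX library it was 0.9975, just under the 2-fold limit.

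Among the 20 Aux/IAA genes tested, 3 were higher and 6 lower in Root ROX at an adjusted p under 0.05 without the fold limit, and 2 were higher and 1 lower in Set ROX. Of all genes 14.4% and 21.3% met this rule in the Root and 3.5% and 4.05% in the Set libraries. The gene that was lower in both sets was Os01g0741900, similar to IAA26. It was at 31.3 and 30.5 FPKM in Root ROX against 38.5 and 38.6 FPKM in Root NT, and at 16.9 and 20.1 FPKM in Set ROX against 26.9 and 26.6 FPKM in Set NT. Within each set both ROX libraries were below both NT libraries, with a log2 fold change over both sets of -0.41 (standard error 0.07, adjusted p = 0.0198). Os02g0228900, similar to IAA18, went in opposite directions. It was at 2.57 and 2.38 FPKM in Root ROX against 4.10 and 4.10 FPKM in Root NT, but at 16.4 and 16.1 FPKM in Set ROX against 7.48 and 8.62 FPKM in Set NT. The ROX libraries were thus the low ones in the Root and the high ones in the Set libraries, with log2 fold changes of -0.55 (adjusted p = 0.00275) and 0.94 (adjusted p = 0.00119). The 3 most abundant Aux/IAA genes, Os05g0230700 (similar to IAA17), Os01g0675700 (similar to IAA14) and Os01g0231000, had log2 fold changes from -0.16 to 0.18 in either set.

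ARFs are the transcription factors that bind auxin response elements, and 22 of 23 were tested. None was called in either set, and their log2 fold changes ran from -0.71 to 0.50 in Root and from -0.34 to 0.41 in Set libraries. At an adjusted p under 0.05 without the fold limit, 1 ARF was higher and 6 were lower in Root ROX, where 14.4% and 21.3% of all genes were. The higher one was Os01g0236300, similar to ARF18, at 34.3 and 32.1 FPKM in Root ROX against 23.7 and 22.7 FPKM in Root NT, and at 46.1 and 43.3 FPKM in Set ROX against 35.1 and 39.2 FPKM in Set NT. Within each set its ROX libraries were above its NT libraries, with a log2 fold change over both sets of 0.38 (standard error 0.07, adjusted p = 0.0244). Os02g0141100, similar to ARF5, a class known in Arabidopsis for its role in embryonic root and vascular formation, ran the other way. It was at 2.72 and 2.50 FPKM in Root ROX against 4.73 and 4.94 FPKM in Root NT, and at 1.82 and 1.82 FPKM in Set ROX against 2.14 and 3.07 FPKM in Set NT (log2 fold change over both sets -0.52, standard error 0.11, adjusted p = 0.0372). The other abundant ARFs, Os01g0927600 (similar to ARF2) and Os11g0523800 (similar to ARF23), had log2 fold changes over both sets of -0.06 and -0.14, with adjusted p of 0.568 and 0.291.

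The class of receptors and auxin-binding proteins, filled by the wording of the Descriptions alone, held 3 tested genes. The TIR1-like F-box gene Os04g0395600 was at 106 and 104 FPKM in Root ROX against 102 and 108 FPKM in Root NT, and at 117 and 108 FPKM in Set ROX against 103 and 90.8 FPKM in Set NT, with a log2 fold change over both sets of 0.11 (95% interval -0.055 to 0.27). Os12g0529400, similar to auxin-binding protein 4, had a log2 fold change of -0.20 (adjusted p = 0.165). Os04g0288100, similar to auxin-binding protein ABP20, was at 64.4 and 70.8 FPKM in Root ROX against 36.5 and 39.5 FPKM in Root NT, but at 15.6 and 32.4 FPKM in Set ROX against 49.3 and 43.8 FPKM in Set NT. The ROX libraries were above NT in the Root and below NT in the Set libraries, and the 2 Set ROX libraries differed about 2-fold from each other. Neither difference passed alone, with log2 fold changes of 0.82 (adjusted p = 0.0553) and -1.01 (adjusted p = 0.0737). Both rest on a spread shared by the sets, so the gap between the Set ROX libraries also widened the error of the Root difference.

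The 5 tested flavin monooxygenase genes whose Descriptions name auxin biosynthesis had mean levels from 1.99 to 5.94 FPKM. Os07g0437000 was at 5.41 and 5.45 FPKM in Root ROX against 3.10 and 3.38 FPKM in Root NT, and at 3.61 and 4.50 FPKM in Set ROX against 2.80 and 3.22 FPKM in Set NT. All 4 ROX libraries were above all 4 NT libraries, and the log2 fold change over both sets was 0.47 (standard error 0.09, adjusted p = 0.0307). Os03g0162000 was at 4.00 and 3.83 FPKM in Root ROX against 2.73 and 2.51 FPKM in Root NT, but at 1.41 and 1.45 FPKM in Set ROX against 2.71 and 2.07 FPKM in Set NT, so its ROX libraries were the higher ones in one set and the lower ones in the other.

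GH3 enzymes join IAA to amino acids and so take it out of the active pool. Os07g0592600, similar to the amido synthetase GH3.3 and located on chromosome 7 (24149718 to 24152074), was at 3.66 and 4.23 FPKM in Root ROX against 1.35 and 1.64 FPKM in Root NT, and at 6.16 and 6.23 FPKM in Set ROX against 4.37 and 5.08 FPKM in Set NT. ROX was above NT within each set. The log2 fold change was 0.66 over both sets (standard error 0.14, adjusted p = 0.0386) and 0.99 in the Root libraries, just under 2-fold on the log2(FPKM + 1) scale although the ratio of the mean FPKM was 2.64. It shares its position with another annotated gene, as Os07g0437000 does. The counting is not stated to use strand, so whether reads of the partner were kept apart is not known. The other abundant GH3 genes were Os05g0143800, with log2 fold changes of -0.03 (Root) and -0.01 (Set), and Os01g0221100, with -0.22 and 0.43. The auxin amidohydrolase-like gene Os01g0560000, of the enzymes that release IAA from such conjugates, was at 82.8 to 84.6 FPKM in Root ROX against 69.6 to 72.1 FPKM in Root NT (log2 fold change 0.24, adjusted p = 0.0999).

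None of the 14 carrier genes tested was called in either set. Of the 10 efflux genes, 1 was higher and 0 were lower in Root ROX by limma at an adjusted p under 0.05 without the fold limit, against 14.4% and 21.3% of all genes. That gene was Os01g0802700, at 5.75 and 5.76 FPKM in Root ROX against 3.48 and 3.05 FPKM in Root NT, and at 48.9 and 34.8 FPKM in Set ROX against 43.4 and 49.8 FPKM in Set NT. Its Root ROX and Root NT libraries were separate, the Set groups overlapped, and the Set libraries were all far above the Root libraries. The most abundant efflux gene, Os09g0491740, was at 93.1 and 91.6 FPKM in Root ROX against 108 and 108 FPKM in Root NT, and at 26.3 and 21.5 FPKM in Set ROX against 34.7 and 28.3 FPKM in Set NT. ROX was below NT in both sets, but the log2 fold change over both of -0.30 did not pass (standard error 0.09, adjusted p = 0.0806). Os08g0191000 had -0.13 and -0.08 in the Root and Set libraries.

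Of the 4 influx genes, Os01g0856500 was the most abundant, at 25.4 and 27.1 FPKM in Root ROX against 30.7 and 29.8 FPKM in Root NT, and at 63.6 and 67.9 FPKM in Set ROX against 46.4 and 50.7 FPKM in Set NT. It lay below NT in the Root libraries (log2 fold change -0.20, adjusted p = 0.0580) and above NT in the Set libraries (0.43, adjusted p = 0.0116). Os05g0447200, an AUX1-like gene, had log2 fold changes of -0.09 and 0.20 in the Root and Set libraries, and Os10g0147400 had -0.45 and -0.01.

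The 3 dormancy or auxin-repressed genes were among the 4 auxin genes with the highest mean FPKM over the 8 libraries, and all 3 had a lower mean in ROX than in NT in both sets. Os09g0437500 was at 808 and 802 FPKM in Root ROX against 1010 and 1001 FPKM in Root NT, and at 35.9 and 43.1 FPKM in Set ROX against 60.5 and 49.6 FPKM in Set NT. Os08g0453200 was at 317 and 314 FPKM in Root ROX against 454 and 473 FPKM in Root NT, and at 155 and 173 FPKM in Set ROX against 224 and 177 FPKM in Set NT. In both genes the ROX libraries were below the NT libraries of their own set. The log2 fold changes over both sets were -0.39 for Os09g0437500 (standard error 0.09, adjusted p = 0.0400) and -0.42 for Os08g0453200 (standard error 0.10, adjusted p = 0.0468), while Os03g0342900, at -0.25, did not pass (adjusted p = 0.0742).

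The auxin-independent growth promoter genes encode proteins of a plant family related to glycosyltransferases, and none of the 7 tested was called. Os09g0442900 was at 11.8 and 11.9 FPKM in Root ROX against 10.01 and 10.09 FPKM in Root NT, and at 10.9 and 10.9 FPKM in Set ROX against 9.14 and 10.2 FPKM in Set NT, with all ROX above all NT libraries and a log2 fold change of 0.19 (adjusted p = 0.0830). Among all 111 auxin genes the ROX and NT libraries did not overlap in 4, or 3.60%, against 5.38% of all genes tested. Besides Os09g0442900 and Os07g0437000 these were Os12g0190100 and Os11g0247000, both lower in ROX. Of the remaining abundant genes with auxin in their Description, the auxin-regulated calmodulin gene Os07g0687200 was at 468 and 466 FPKM in Root ROX against 320 and 317 FPKM in Root NT, and at 314 and 358 FPKM in Set ROX against 369 and 405 FPKM in Set NT. Its log2 fold changes were 0.55 in the Root (adjusted p = 0.00262) and -0.20 in the Set libraries (adjusted p = 0.191). Os01g0924400, an auxin-induced bHLH factor, had a log2 fold change of -0.12 over both sets (adjusted p = 0.169).

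For 8 of the 111 auxin genes the ROX over NT fold change differed between the library sets, 7.21% of them against 5.72% of all genes. The Root and Set contrasts share no library. Of the 111 genes 64 had the same sign in both, or 57.7%, against 54.5% of all genes tested. Across the 111 genes, which are not independent replicates, the log2 fold changes of the sets had a Pearson correlation of -0.004 and a Spearman correlation of 0.078, against 0.204 and 0.0998 across all genes. Of the 36 auxin genes at an adjusted p under 0.05 in the Root libraries, 19 had the same sign in the Set libraries, or 52.8%, against 57.1% of all genes. Only 5 auxin genes had an adjusted p under 0.05 in each set, and 1 of them, Os01g0741900, had the same sign in both, against 839 of 1080 genes over the whole table. The 4 with opposite signs were the Aux/IAA gene Os02g0228900, the flavin monooxygenase gene Os03g0162000, the GH3 gene Os01g0221100 and the SAUR gene Os06g0714300. By the interaction of set and genotype, 8 auxin genes differed by at least 1 on the log2 scale with an adjusted p under 0.05. In 5 the ROX over NT fold change was higher in the Root libraries, or 4.50% against 4.2% of all genes, and in 3 it was lower, or 2.70% against 1.53%. Without the limit of 1 these were 13 and 14 genes, or 11.7% and 12.6%, against 10.7% and 10.8% of all genes. The first 5 were the SAUR genes Os01g0768333, Os10g0510500 and Os06g0702000, the Aux/IAA gene Os06g0166500 and the ABP20-like gene Os04g0288100. The 3 others were Os02g0228900 (similar to IAA18), Os09g0545300 and the efflux gene Os01g0919800. The count fell to 4 without the first Root NT or the second Root ROX library and to 5 without the second Root NT, the first Root ROX or the first Set NT library, and Os01g0768333, Os10g0510500 and Os02g0228900 were called in each of these fits.

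**Figure D3:**
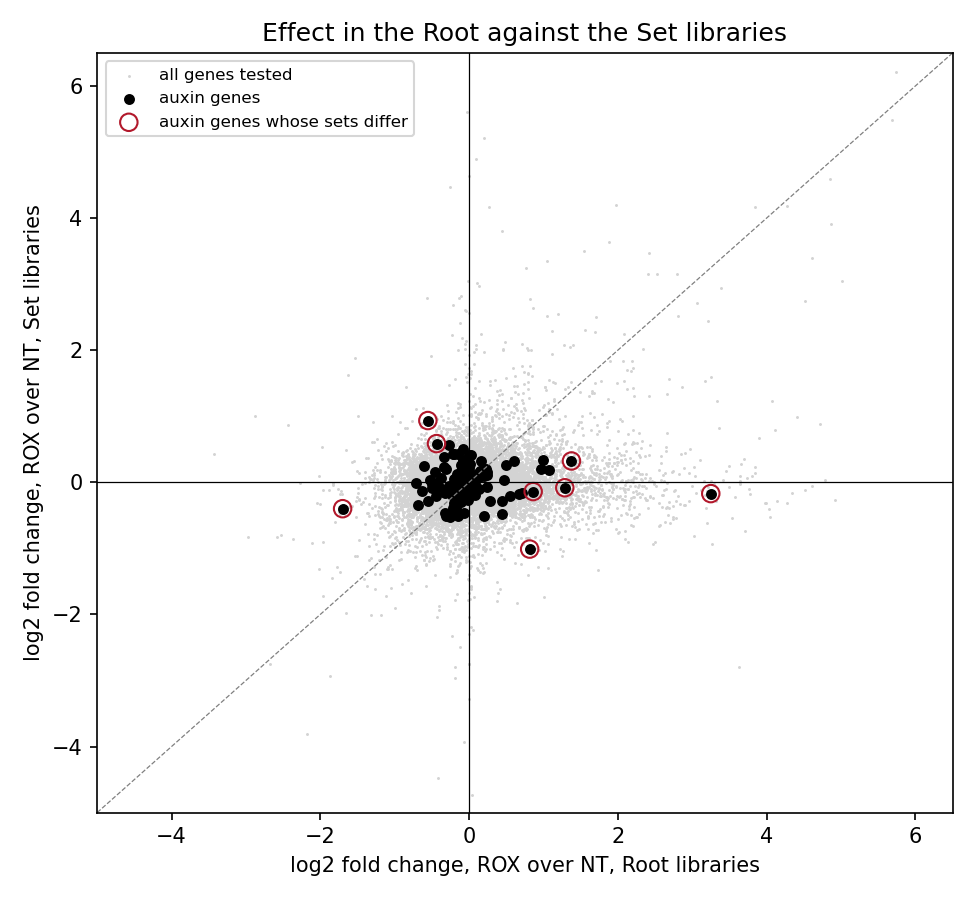
Log2 fold change of ROX over NT in the Root libraries (horizontal axis) against the Set libraries (vertical axis), both on the log2(FPKM + 1) scale, for the 111 auxin genes (black) and all 26136 genes tested (grey, 5 of them outside the axes); red circles mark the 8 auxin genes whose fold change differed between the sets, and the dashed line marks equal values. The circled SAUR gene Os01g0768333 lies at 3.25 (Root) and -0.17 (Set).

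The level of many auxin genes also differed between the sets, whichever the genotype. In 45 of the 111 genes every Set library was above every Root library, and in 30 every Root library was above every Set library, or 40.5% and 27.0%, against 36.1% and 28% of all genes tested. Between the NT libraries alone, 21 auxin genes were at least 2-fold higher in Set NT and 11 at least 2-fold higher in Root NT, 28.8% of the auxin genes together against 20.6% of all genes. Neighbouring Aux/IAA genes on chromosome 12 were among those higher in Set NT. Os12g0601300 was at 73.8 and 88.8 FPKM in Set NT against 11.2 and 10.8 FPKM in Root NT, and Os12g0601400 at 75.8 and 89.7 FPKM in Set NT against 9.79 and 9.37 FPKM in Root NT. Over ROX and NT together, the influx gene Os10g0147400 was 9.96-fold and the efflux gene Os01g0802700 9.81-fold higher in the Set libraries, and all 3 dormancy or auxin-repressed genes were higher in the Root libraries, Os09g0437500 by 19.1-fold. RCc3 was 6.34-fold higher in the Set and Lsi1 2.09-fold higher in the Root libraries. The part of root zone, handling or sequencing in these differences was not tested, and no test was run on them because the sets are known only from the column names.

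**Figure D4:**
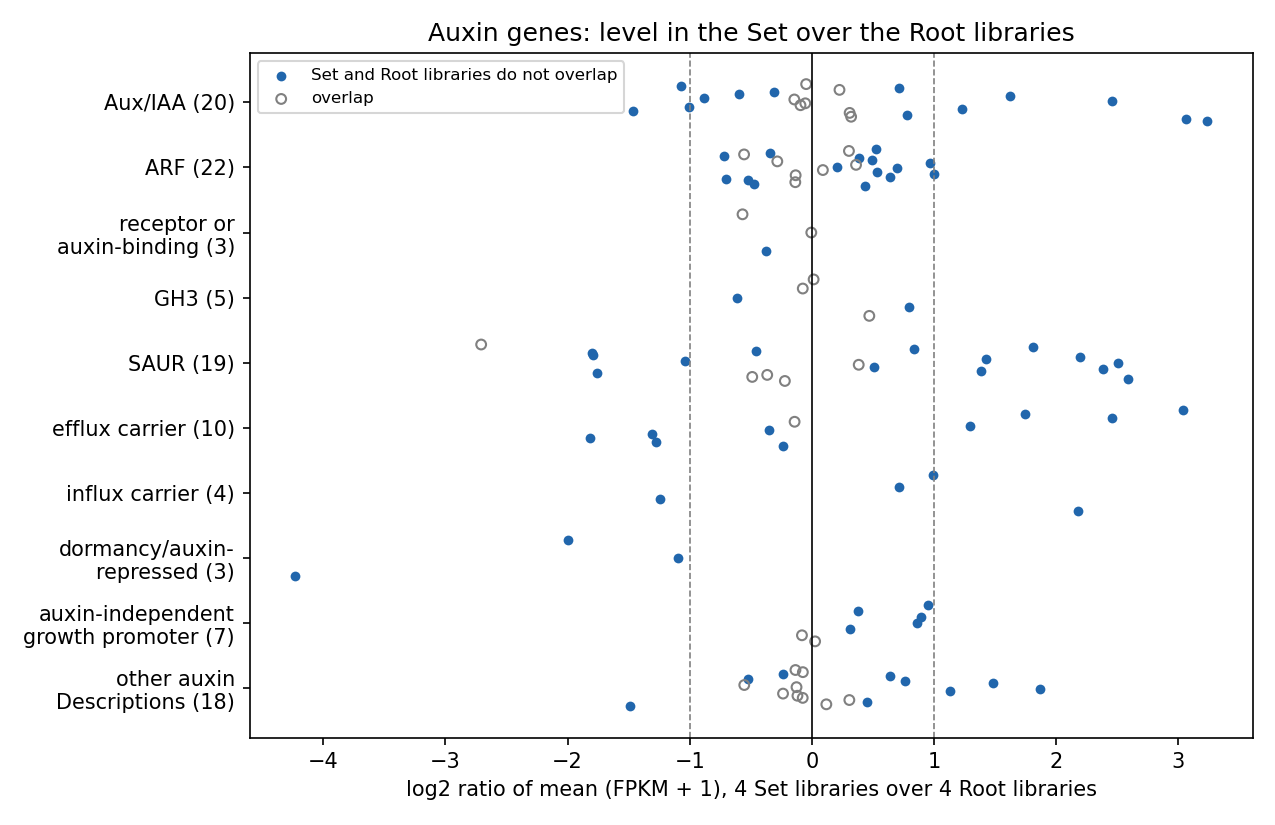
Log2 ratio of the mean FPKM + 1 of the 4 Set libraries over that of the 4 Root libraries (horizontal axis) for the 111 auxin genes by class (vertical axis, number of genes in parentheses); filled points are genes whose Set and Root libraries do not overlap, open points overlap, and dashed lines mark 2-fold. The dormancy or auxin-repressed genes all lie to the left, and the 2 rightmost Aux/IAA points are the neighbours on chromosome 12.

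Genes of the pathway whose Descriptions lack the word auxin were read from a separate list of 33, of which 16 were tested. The pattern for AUX1/LAX carriers matched only the 2 genes described as similar to transcription factor LAX PANICLE, which are no auxin carriers, and of these 1 was tested and not called. None was called over both sets by limma, although 6 had an unadjusted p under 0.05, against 27.9% of all genes. At an adjusted p without the fold limit 5 of the 16 passed, against 2.74% of all genes higher and 4.34% lower. Higher in ROX were Os10g0554300, Os11g0106900 and Os12g0106200. Lower were Os01g0717700 and the IAA-amino acid hydrolase gene Os07g0249700, the latter with a log2 fold change of -0.21 over both sets (adjusted p = 0.0377). Within the sets, 2 of the 16 were called higher in Root ROX, against 3.91% of all genes, and none was called in the Set libraries. Both were genes with a lateral organ boundaries (LOB) domain, a family that includes regulators of root initiation downstream of ARFs. Os07g0589000 was at 42.8 and 45.2 FPKM in Root ROX against 15.7 and 18.5 FPKM in Root NT, and at 5.90 and 7.29 FPKM in Set ROX against 6.87 and 7.37 FPKM in Set NT (log2 fold change 1.32 in the Root libraries, adjusted p = 0.000199). Os05g0123000 was at 5.77 and 5.20 FPKM in Root ROX against 1.81 and 2.43 FPKM in Root NT, but at 0.467 and 0.246 FPKM in Set ROX against 0.976 and 0.936 FPKM in Set NT. In both genes the Root ROX libraries were the highest of the 8, and the interaction of set and genotype passed as well (1.42 and 1.59 on the log2 scale, adjusted p = 0.00131 and 0.00152). The LOB genes Os11g0106900 and Os12g0106200 were higher in ROX over both sets, below 2-fold (log2 fold changes 0.50 and 0.42, adjusted p = 0.0435 and 0.0413). Their log2 fold changes were 0.63 and 0.52 in the Root and 0.38 and 0.33 in the Set libraries. The remaining tested LOB gene, Os10g0162600, had -0.15 over both sets (adjusted p = 0.405).

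In the same list, the flavin monooxygenase-like gene Os10g0554300 was higher in ROX in both sets, at 2.35 and 2.63 FPKM in Root ROX against 0.706 and 0.978 FPKM in Root NT, and at 2.86 and 2.64 FPKM in Set ROX against 1.199 and 1.083 FPKM in Set NT. All ROX libraries were above all NT libraries, with a log2 fold change over both sets of 0.87 (adjusted p = 0.00173), below the 2-fold limit on the log2(FPKM + 1) scale. The alliinase-domain gene Os01g0717700, of the family that holds the tryptophan aminotransferases which make indole-3-pyruvate, was lower in ROX in both sets, at 15.6 and 16.7 FPKM in Root ROX against 22.2 and 21.6 FPKM in Root NT, and at 15.5 and 15.5 FPKM in Set ROX against 20.8 and 24.6 FPKM in Set NT (log2 fold change -0.47, adjusted p = 0.0103). For all genes of this list, the LOB genes among them, the fits without the set term, with averaged pairs or with a replicate block were not examined. The other TIR1-like genes, Os05g0150500 and Os11g0515500, were not called in either set. Os05g0150500 had log2 fold changes of -0.23 (Root, adjusted p = 0.0439) and 0.26 (Set, adjusted p = 0.0738), with an interaction of -0.49 (adjusted p = 0.0156). The interaction also passed for the flavin monooxygenase-like gene Os03g0182000 (1.47, adjusted p = 0.0335), with Set NT at 11.2 and 5.67 FPKM. An IAA-amino acid hydrolase gene, Os03g0836800, is listed at 0 in all 4 Root libraries and was at 9.70 and 2.89 FPKM in Set ROX against 17.6 and 14.8 FPKM in Set NT (adjusted p = 0.0785).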

How the data were processed

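RNA of 8 root libraries (4 ROX, 4 NT) was sequenced by a service provider from strand-specific libraries on the Illumina HiSeq. Gene and transcript tables of FPKM were deposited by the authors, with the length of each transcript in bases, an annotation value of another kind. The submitters' processing notes list the genome build IRGSP-1.0, while the aligner and the quantification tool are not given in the sources used here. FPKM corrects for depth and length, and low genes rest on few fragments. Another 4 value columns match no sample and were not used here. Start positions were raised by 1, since the tables count them from 0. A RefSeq gene table of another assembly matched 0 of the 150 identifiers, so names came from the Descriptions alone. Overlaps with another annotated gene affect 40 of the 150.

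For the tests, log2(FPKM + 1) was fitted with limma 3.58.1 in R 4.3.3 (lmFit, eBayes with a trend, two-sided) for the 26136 genes with a mean of at least 0.5 FPKM. Genotype was fitted with the library set as a covariate over both sets, and as contrasts of the set and genotype means within each set and between sets. These contrasts share an estimate of the spread of each gene over both sets. Across genes, the SD of the log2 difference within a pair was 0.162 (ROX) and 0.149 (NT) in the Root libraries. In the Set libraries it was 0.296 and 0.270. The p-values may thus be too large in the Root and too small in the Set libraries. Fold changes are on the log2(FPKM + 1) scale, which understates the change of low genes. The fits were tested on simulated data with no difference between the sets and the same spread in every library. That test therefore does not cover the set differences and unequal spread seen here. The auxin genes and lists were chosen with earlier results of these data known. The methods describe technical replicates within 2 lines, so p-values measure the spread between these libraries, which may be technical. Depth was estimated with Python 3.11.15 from the steps of low FPKM values after 140 to 200 bases were taken off the length. At the chosen settings 92.3% to 93.6% of these values fell within 0.1 of a whole fragment. Depth and bases were chosen for each library to make this share largest, so it is no independent check.

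Genes were classed by the wording of their Descriptions. The rule named the 3 most abundant of each class, the called genes and the 5 with the largest difference between sets. Other genes, including those at an adjusted p alone or without overlap, were named after their values were seen. The alternatives were a pseudocount of 0.1, a minimum mean FPKM of 5 or none, median-ratio and quantile scaling, no trend, no set term, averaged pairs, a replicate block, other call limits and leaving out each library.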

Additional observations from a re-analysis of the deposited data

Results flagged for a closer look

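The fold change of ROX over NT differed between the library sets, by a test of the interaction, for 8 auxin genes. The differences, Root minus Set on the log2 scale, were 3.42 for the SAUR gene Os01g0768333 (adjusted p = 0.000387 from limma), 1.37 for Os10g0510500, 1.002 for Os06g0702000 and -1.30 for Os09g0545300 (adjusted p = 0.0418). They were 1.05 for the Aux/IAA gene Os06g0166500, -1.49 for the Aux/IAA gene Os02g0228900 (adjusted p = 0.000362), 1.83 for the ABP20-like gene Os04g0288100 (adjusted p = 0.0174) and -1.02 for the efflux gene Os01g0919800 (adjusted p = 0.0261). The signs of the fold changes were opposite in the sets for 6 of the 8, and the same for Os06g0166500 and Os09g0545300. Of 14 alternatives, the call was lost in 8 for Os09g0545300, in 7 for Os01g0919800, in 5 each for Os04g0288100 and Os06g0702000 and in 2 for Os06g0166500, while Os01g0768333, Os10g0510500 and Os02g0228900 kept it in all 14. Os01g0919800 rests on 0.407 and 0.678 FPKM in Root ROX against 1.18 and 0.989 FPKM in Root NT, and on 9.66 and 12.2 FPKM in Set ROX against 5.82 and 8.16 FPKM in Set NT.

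Among the 4 ROX libraries, the second Set ROX library stood apart for the amidohydrolase-like gene Os01g0560000, at 71.4 FPKM against 82.8 to 84.6 FPKM in the others. How often such a gap arises by chance over many genes and groups was not tested, and the Set NT libraries of this gene were at 75.4 and 63.6 FPKM.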

How the results depend on the processing

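Of 111 auxin genes 0 were called over both sets. The count was 2 with an unadjusted p, 7 without the fold limit and 0 to 1 with a library left out, the 1 being Os09g0545300. It was 0 without the set term and with pairs averaged, where no auxin gene passed an adjusted p at any fold, and only 45 and 1 of all genes did. In the Root libraries 5 were called, 11 with a pseudocount of 0.1 (7 higher, 4 lower), 36 without the fold limit and 4 to 7 with a library left out. The GH3 gene Os07g0592600 was called there under quantile and median-ratio scaling as well. In the Set libraries the count was 0, and 1 with a pseudocount of 0.1, quantile scaling or an unadjusted p, 10 without the fold limit and 0 to 1 with a library left out (Os02g0228900 without the second Set NT library, Os04g0288100 without the second Set ROX library). For the difference between sets, 8 genes became 27 without the fold limit and 4 to 9 with a library left out.

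The median Root fold change of -0.095 became -0.116 with a minimum of 5 FPKM, -0.066 with no filter, -0.128 with a pseudocount of 0.1, -0.079 with quantile and -0.061 with median-ratio scaling, and -0.104 to -0.083 with a library left out. Of 217 alternatives for genes named by the rule, 164 stayed on the same side of the threshold, 53 no longer passed and 0 turned the sign. These leave out genes named after their values were seen, such as Os01g0741900, Os02g0141100, Os07g0437000, Os01g0919800 and Os06g0702000. Of the 53, 37 belong to the 4 rule-named genes that passed over both sets, whose threshold is the adjusted p alone. The other 16 belong to called genes. The Root calls of Os01g0768333, Os06g0166500, Os09g0545300 and Os10g0510500 held in all 14 alternatives. The 7 genes below 2-fold over both sets lost their adjusted p without the set term, with pairs averaged or with the replicate block. In these fits 45, 1 and 274 of all genes passed.

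Library numbers were not taken to pair the samples, since no label says that a number marks a shared batch, although the Set column names share a set number across genotypes. Same-numbered deviations correlated at 0.024 (Root) and 0.257 (Set). The replicate block called 0 auxin genes over both sets, as without it, and at an adjusted p alone 0 instead of 7, where 274 of all genes passed with the block. Depth limits genes such as Os01g0768333, with 13 or fewer fragments in 6 of 8 libraries.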
